A study of Mus musculus with 38 samples.

Results

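Of the 21705 genes in the deposited RNA table of mouse kidney tumours and tumour cell lines, 41 belonged to WNT signalling as chosen here by gene symbol alone. They were the genes whose symbol began with Wnt, Fzd, Sfrp or Dkk followed by a digit, together with Lef1, Tcf7, Axin2 and Lgr5. By role they comprised 19 WNT ligands, 11 receptors (the 10 Frizzled receptors and Lgr5), 8 secreted inhibitors (4 of the Sfrp and 4 of the Dkk family) and 3 genes of the nuclear end of the pathway (the DNA-binding factors Lef1 and Tcf7 and the feedback gene Axin2).

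WNT proteins are secreted, lipid-modified ligands that bind Frizzled receptors on the cell surface. In the branch that runs through β-catenin, a ligand joins Frizzled to an LRP co-receptor, the complex that destroys β-catenin is switched off, and β-catenin moves to the nucleus, where it acts through DNA-binding partners such as Lef1 and Tcf7 on target genes that include Axin2 and Lgr5. Other branches, for which Wnt5a and Wnt11 are best known, act on cell shape and polarity. Sfrp proteins bind the ligands and Dkk1 blocks the co-receptor, both outside the cell. In the developing kidney Wnt9b, Wnt4, Wnt7b and Wnt11 are known for nephron formation, growth of the medulla and branching of the ureteric bud.

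The 38 libraries formed 10 groups. MYC mice carried Ksp-rtTA and Tet-O-MYC, so that doxycycline (Dox) turned on a MYC transgene in cells in which the Ksp (kidney-specific cadherin) promoter was active, which are mainly tubule cells. VM mice carried in addition a conditional deletion of Vhl, made by a tamoxifen-induced Cre under the same promoter, and VIM mice further lacked Ink4a/Arf (Cdkn2a) in the germline. The cell groups were 1 tumour-derived line of each genotype, MYC-2983, VM-3055 and VIM-3039, each kept on Dox at 2 µg per ml or withdrawn from it, with 4 libraries per condition collected 24 h after plating. All lines had been derived and grown in Dox. The tissue groups were MYC, VM and VIM tumours from mice on Dox (3 libraries each) and kidneys of vehicle-treated wild-type mice (5 libraries, the titles of 2 of which begin with B6 and of 3 with KT, with no meaning given). The 3 MYC tumour libraries came from 2 mice, since replicates 2 and 3 both came from mouse 2983, and these were averaged in every test. The MYC-2983 line carries the same mouse number as those tumour libraries, as the VM-3055 line does with VM tumour replicate 2. No cells without the transgene were given Dox, so Dox and MYC cannot be told apart, and with 1 line per genotype neither can genotype and line. The sources do not say that libraries of 1 cell group came from separate cultures, so p-values for the cells measure the spread between libraries, which may be technical.

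Levels are normalised read counts, called units here, which the authors had scaled to an upper quartile of 1000 in every library. The libraries held an estimated 8.22 to 36.6 M reads, and the level worth 3 reads, 1.16 to 5.65 units, was taken as the floor of detection. Vhl was read to check the labels of the Vhl-deleted groups. Being deleted in both VM and VIM mice, it cannot tell these genotypes apart. It stood at 433 to 543 units in MYC-2983 cells and 612 to 772 in normal kidney but at 8.32 to 38.8 in VM-3055 and VIM-3039 cells, and at 40.2 to 79.9 in VM and 219 to 312 in VIM tumours against 468 to 560 in MYC tumours. The renal epithelial markers Cdh16, Pax8 and Epcam were above the floor in each library. All tests were made with limma on log2(units + 1) over the whole table, and to pass, a gene needed both an adjusted p below 0.05 and a log2 change above 1 in size.

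Of the 41 WNT genes, 31 reached a mean of at least 20 units in 1 or more of the 10 groups and are described with their values. The other 10 (Dkk1, Dkk4, Fzd10, Wnt1, Wnt3, Wnt3a, Wnt6, Wnt8a, Wnt8b and Wnt10b) had no group mean above 14.04 units. Dkk4 was at 0 in every library, and 5 genes did not exceed the floor in any library. Genes above the floor in every library of a group numbered 27 and 28 in MYC-2983 cells without and with Dox, 24 and 22 in VM-3055 cells and 27 and 24 in VIM-3039 cells. They numbered 26 in MYC tumours, 17 in VM tumours, 22 in VIM tumours and 18 in normal kidney. Shallower libraries have a higher floor, so these numbers are not compared between groups.

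**Figure D1:**
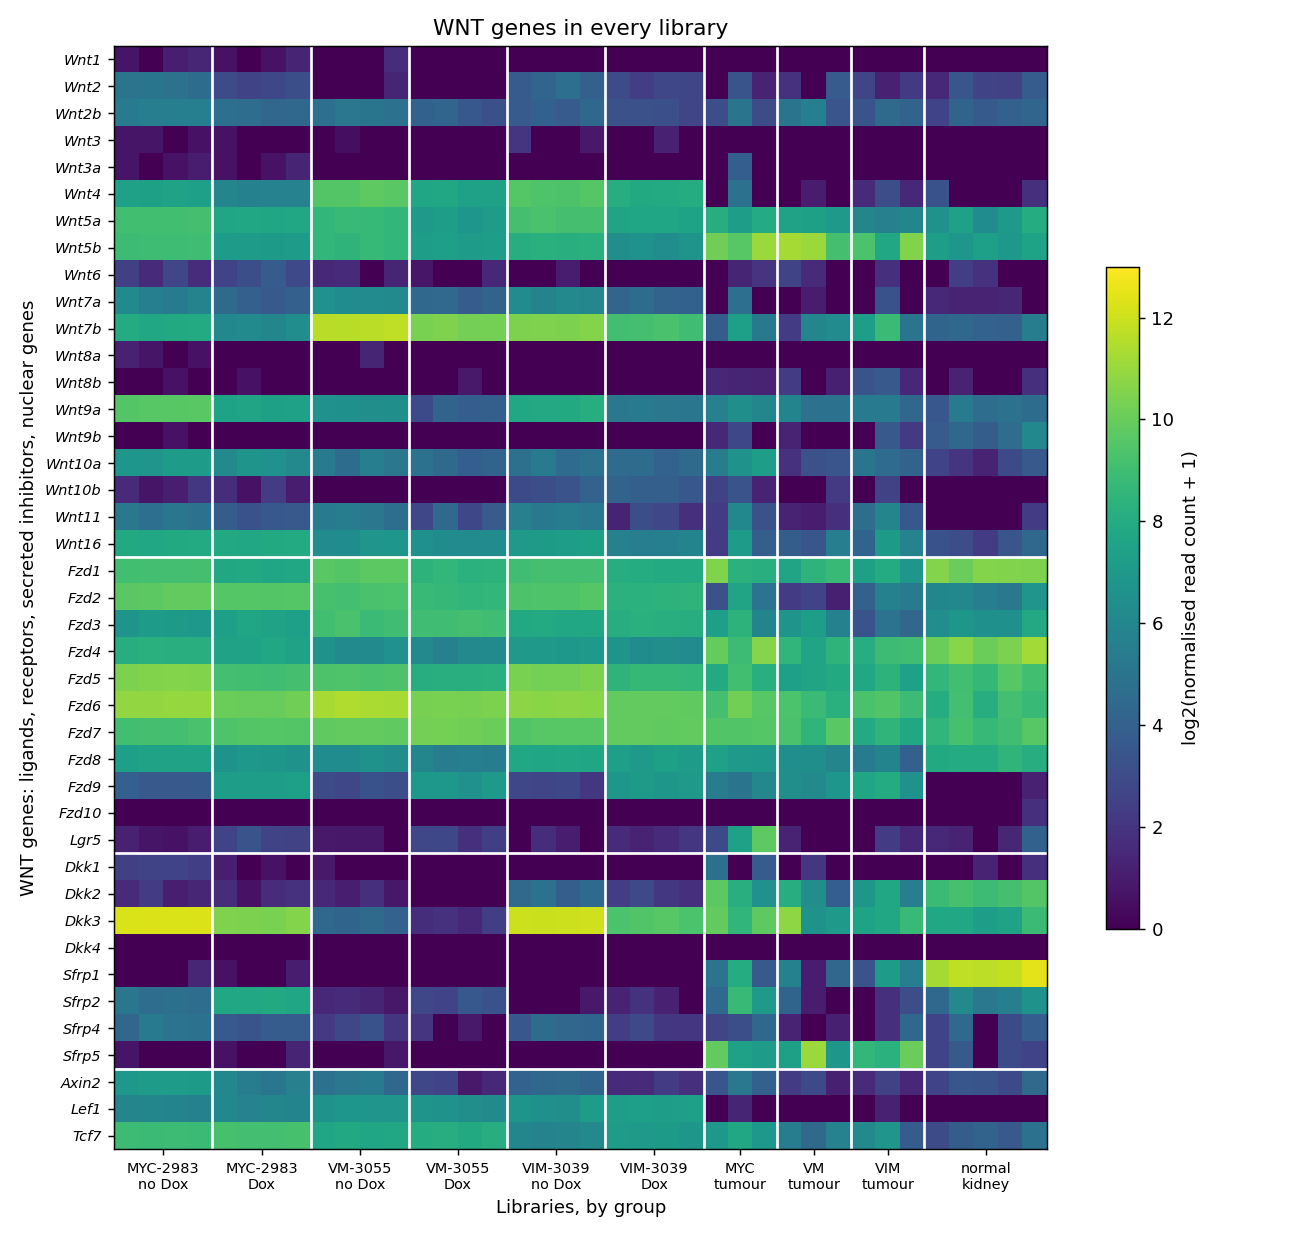
Level of the WNT genes (rows, ordered by role) in each of the 38 libraries (columns, by group), as log2(units + 1) in colour. Ligands such as Wnt4, Wnt7a and Wnt7b are bright in the cell lines and dim in tissue, while Sfrp1 is bright in normal kidney and Sfrp5 in the tumours.

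Divided by transcript length, which allows levels to be compared between genes, the ligand with the highest group mean differed between materials. In MYC-2983 cells without Dox it was Wnt9a, a ligand known from joint development, with 29.2% of the summed ligand level per kb, and with Dox it was Wnt16 with 21.8%, ahead of the other ligands in 3 of 4 libraries. Wnt7b, the ligand known for growth of the renal medulla, led in VM-3055 cells with 63.9% without and 68.1% with Dox, and in VIM-3039 cells with 42.4% and 47.1%. Wnt5b, a close relative of Wnt5a, had the highest mean in all tissue groups, with 79.2% in MYC, 91.3% in VM and 71.8% in VIM tumours and 53.3% in normal kidney, and led in each tissue library but VIM tumour replicate 2. The summed ligand level per kb was 807 ± 22.5 units without and 298 ± 5.75 with Dox in MYC-2983 cells (SD, n = 4), 1457 ± 60.6 and 559 ± 42.1 in VM-3055 cells, and 960 ± 40.3 and 340 ± 6.32 in VIM-3039 cells. It was 727 ± 262 units per kb in MYC, 810 ± 425 in VM and 462 ± 193 in VIM tumours (SD, n = 3 libraries) and 117 ± 31.1 in normal kidney (SD, n = 5). Among receptors Fzd6, known for planar polarity, led per kb in all 24 cell libraries. In tissue no receptor led throughout. Fzd6 led in 2 of 3 VIM and 2 of 3 VM tumours, Fzd4, the norrin receptor, in 3 of 5 kidneys, and a different receptor in each MYC tumour library. Among the inhibitors Dkk3 led in each MYC-2983 and VIM-3039 cell library and Sfrp1 in each kidney, where it made up 76.5% of the summed inhibitor level per kb. Sfrp5 led in 3 of 3 VIM, 2 of 3 VM and 1 of 3 MYC tumours. In MYC tumours Sfrp5 and Dkk3 had like means of 219 and 218 units per kb, with Sfrp5 between 72.9 and 493 and Dkk3 between 111 and 281. In VM tumours the Sfrp5 mean of 426 units per kb rested on replicate 2, with the 3 libraries spread from 62.3 to 1129. These shares are descriptions and were not tested.

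**Figure D2:**
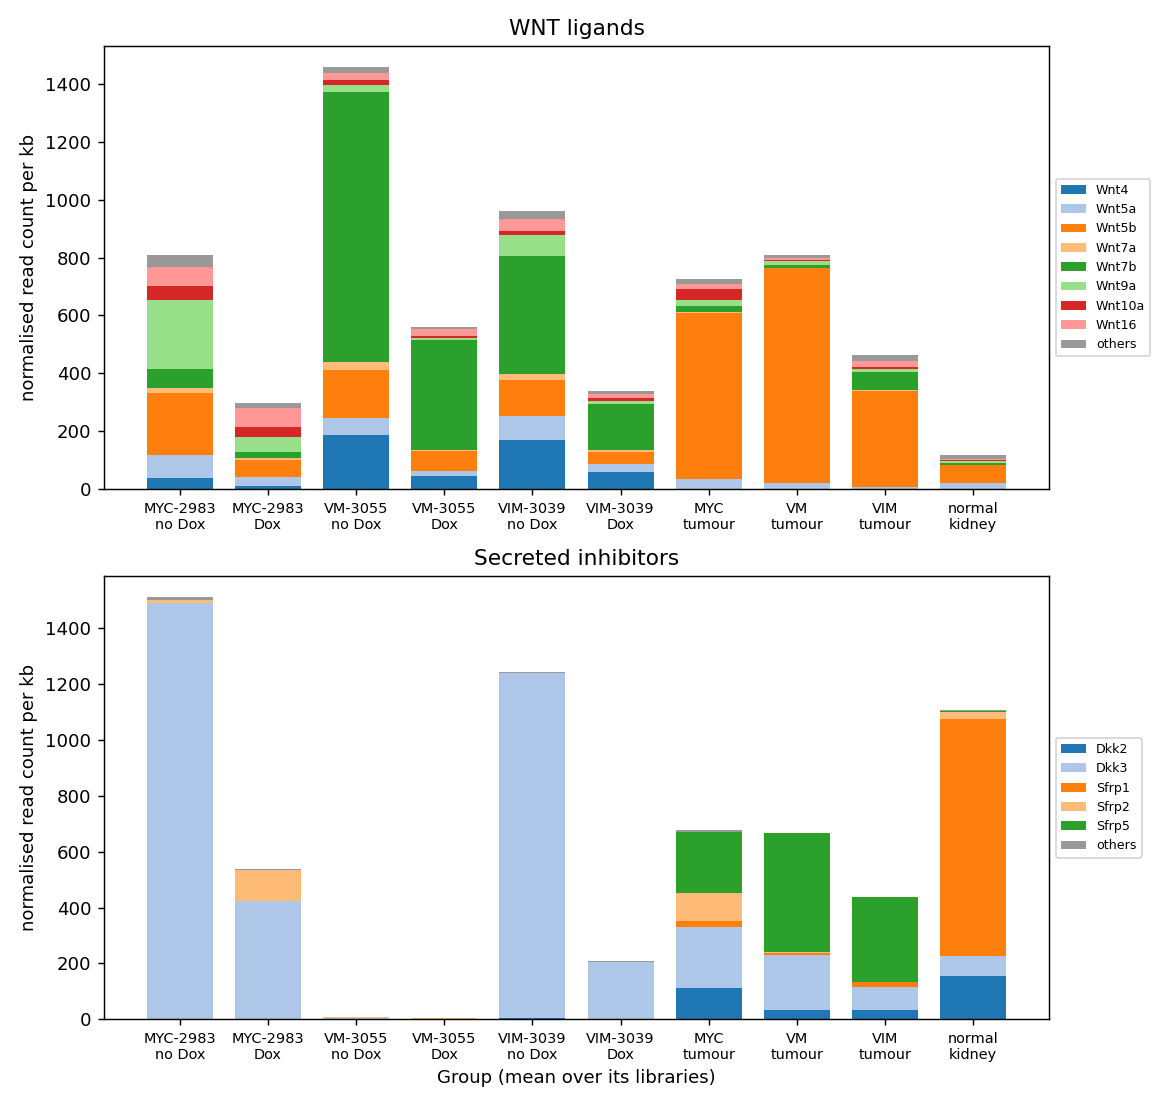
Level per kb of transcript, in units per kb, of the WNT ligands (top) and secreted inhibitors (bottom) in the 10 groups, stacked by gene as group means. Wnt7b makes up most of the ligand bar in VM-3055 cells and Wnt5b in the 3 tumour types, while Dkk3 takes most of the inhibitor bar in MYC-2983 and VIM-3039 cells and Sfrp1 in kidney, and Sfrp5 and Dkk3 share it in MYC tumours.

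Most WNT ligands that the cells expressed were lower with Dox, while Fzd9 was the single WNT gene that passed as higher with Dox in all 3 lines. In MYC-2983 cells 34 WNT genes were tested, of which 3 were higher and 15 lower with Dox, against 4.49% and 15% of all genes tested. In VM-3055 cells 3 of 28 were higher and 14 lower, against 5.92% and 18.9% of all genes, and in VIM-3039 cells 2 of 29 were higher and 16 lower, against 7.67% and 16.6%. The median log2 change of the WNT genes tested was −0.65, −1.06 and −1.11 in the 3 lines, and −0.13, −0.26 and −0.15 over all genes tested. With genes whose lower group lay under the floor set to their bound, the median in VM-3055 cells was −0.89. The direction in which a WNT gene passed was lower in all 3 lines for 12 genes (Axin2, Dkk3, Fzd1, Fzd5, Sfrp4, Wnt4, Wnt5a, Wnt5b, Wnt7a, Wnt7b, Wnt9a and Wnt11), and 18 were lower in at least 1 line. The shares of all genes that were lower in all 3 lines or in at least 1 line are not given here, so these numbers are descriptions only. The libraries with and without Dox differ between lines, so the 3 comparisons share no sample.

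These numbers moved with the scaling. Rescaling by TMM (trimmed mean of M-values) brought the median over all genes to −0.02, −0.04 and −0.01, and the WNT genes then passing numbered 4 higher and 14 lower, 3 and 11, and 3 and 14 in the MYC-2983, VM-3055 and VIM-3039 lines. Over all genes the numbers moved too, from 678 higher and 2264 lower to 880 and 1884, from 847 and 2707 to 1362 and 1999, and from 1074 and 2322 to 1443 and 1873. With quantile normalization the WNT genes numbered 4 and 12, 3 and 10, and 4 and 14, and all genes 1073 and 1482, 1503 and 1593, and 1526 and 1572. Fzd1 missed the required change under TMM in VM-3055 (−0.997) and VIM-3039 cells (−0.95), as Fzd5 did in VM-3055 cells (−0.98). Under quantile normalization Fzd5 missed it in VM-3055 cells, Sfrp4 in MYC-2983 cells and Wnt11 in both of those lines. Fzd9, Axin2, Dkk3, Wnt4, Wnt5a, Wnt5b, Wnt7a, Wnt7b and Wnt9a passed in the 3 lines under both.

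**Figure D3:**
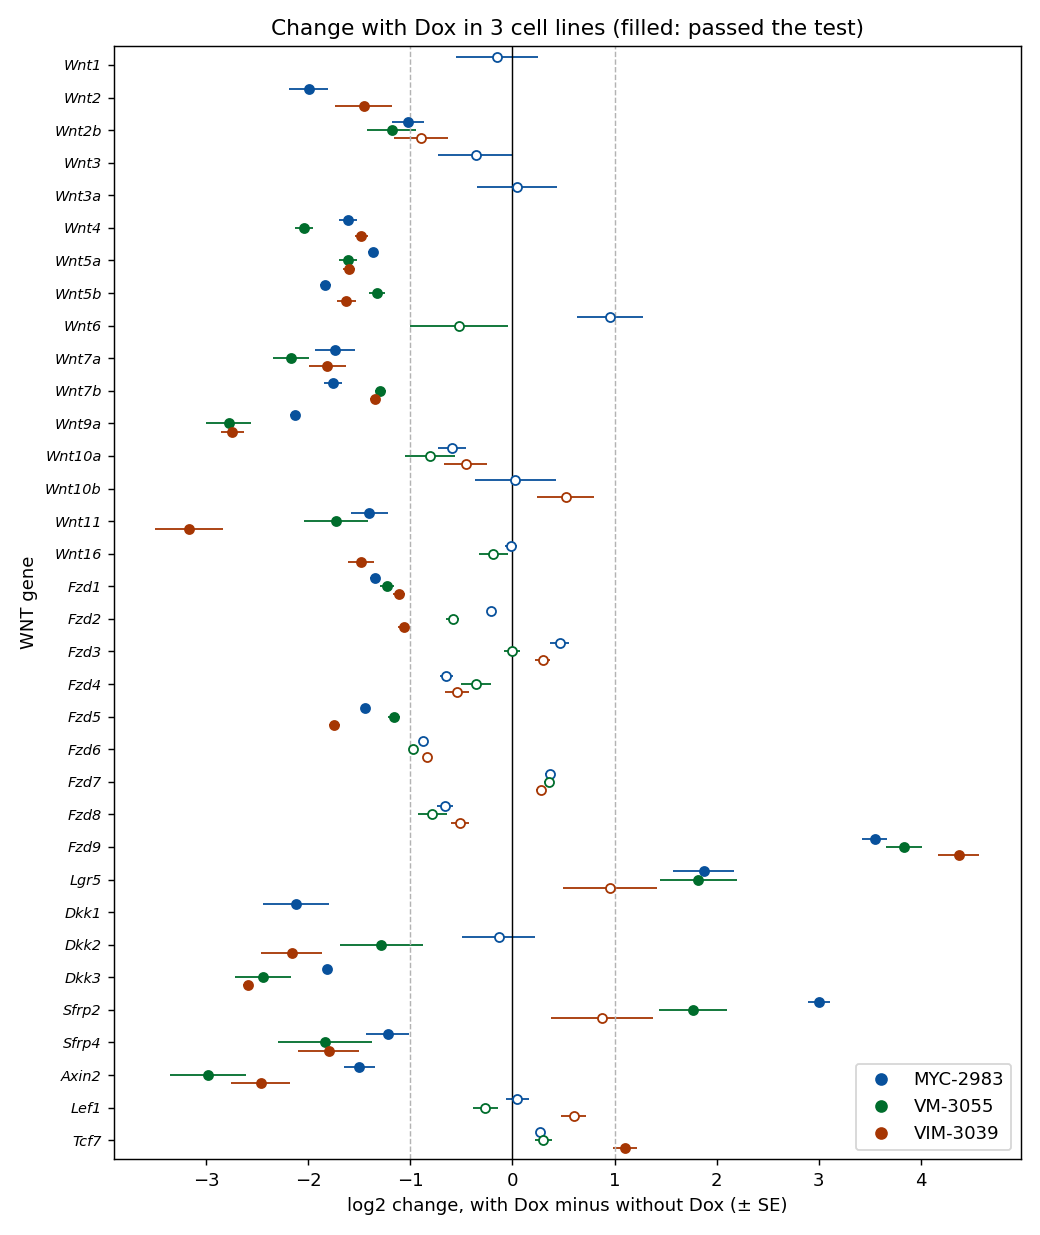
Log2 change with Dox against without (points, filled where the test was passed, with bars of 1 standard error) of each WNT gene tested in the 3 lines. Fzd9 lies far to the right in the 3 lines, at 3.54 to 4.37, and most ligands lie to the left of 0.

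Of the ligands, Wnt9a was lower with Dox in each line, with log2 changes between −2.13 and −2.78. Its 4 MYC-2983 libraries with Dox read 184, 190.3, 166 and 169.8 units and the 4 without 747, 776, 799 and 802, a log2 change of −2.13, SE 0.05, adjusted p = 6.01e-17. In VM-3055 cells it read 6.65, 17.02, 13.6 and 14.04 with and 93.5, 90.7, 84.5 and 88.9 without Dox (−2.78, SE 0.22, adjusted p = 2.54e-09), and in VIM-3039 cells 34.01, 39.5, 34.1 and 33.9 with and 224, 232, 238 and 276 without (−2.74, SE 0.12, adjusted p = 2.82e-15). The ranges with and without Dox did not overlap in any line. Wnt9a lies on chromosome 11 of the mm9 assembly, at 59120430 to 59147054 on the plus strand.

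Wnt7b, the most abundant ligand of the Vhl-deleted lines, read 1356, 1450.2, 1267 and 1244 units in VM-3055 cells with Dox and 3146, 3152, 3278 and 3439 without it, a log2 change of −1.29, SE 0.05, adjusted p = 2.04e-13. In VIM-3039 cells it read 538, 566, 612 and 521 with and 1362, 1416, 1384 and 1519.7 without Dox (−1.34, SE 0.05, adjusted p = 2.70e-16), and in MYC-2983 cells 67.1, 73.95, 61.2 and 80.7 and 252, 224, 241 and 245 (−1.76, SE 0.09, adjusted p = 1.74e-12). The groups stood apart in each line, and Wnt7b with Dox in VM-3055 cells was still above Wnt7b without Dox in MYC-2983 cells. Wnt4, which drives the condensing mesenchyme to form tubules, read 204, 220.4, 171 and 172 with and 743, 722, 871 and 829 without Dox in VM-3055 cells (−2.04, SE 0.09, adjusted p = 4.23e-13), fell from 714 ± 48.2 to 256 ± 17.6 (SD, n = 4) in VIM-3039 cells (log2 change −1.48) and from 169 ± 8.32 to 54.8 ± 3.64 in MYC-2983 cells (−1.61).

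Wnt5a, Wnt5b, Wnt7a and Wnt11 were also lower in all 3 lines. The mean of Wnt5a, the best-known ligand of the β-catenin-independent branch, fell from 545 to 211 units in MYC-2983, 411 to 134 in VM-3055 and 585 to 193 in VIM-3039 cells, with log2 changes of −1.37, −1.61 and −1.596. Its relative Wnt5b fell from 498 to 139 units in MYC-2983, 387 to 154 in VM-3055 and 291 to 93.9 in VIM-3039 cells, with log2 changes of −1.83, −1.32 and −1.63. The annotated Wnt5b gene overlaps Fbxl14 on the other strand. Wnt7a, which patterns the limb, fell from 53.7 to 15.5 units in MYC-2983, 80.5 to 17.3 in VM-3055 and 66.2 to 18.2 in VIM-3039 cells, with log2 changes of −1.73, −2.17 and −1.81. Wnt11, known for ureteric branching, fell from 30.9 to 11.1 units in MYC-2983, 35.5 to 11.1 in VM-3055 and 41.4 to 4.34 in VIM-3039 cells, with log2 changes of −1.399, −1.73 and −3.16. Its level with Dox in VIM-3039 cells, 1.39, 7.63, 5.91 and 2.42 units, lay near the floor in 1 or more libraries.

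Some ligands passed in fewer lines. Wnt2 fell in MYC-2983 (28.9 ± 4.02 to 6.49 ± 1.05 units, SD, n = 4, log2 change −1.995) and VIM-3039 cells (17.7 ± 5.699 to 5.67 ± 1.15, −1.45) and was at or under the floor in VM-3055 cells. Wnt2b fell in MYC-2983 (log2 change −1.02) and VM-3055 cells (−1.18), but it missed the required change under TMM rescaling and also without MYC-2983 replicates 3 or 4 with or without Dox (−0.944 to −0.998), or without VM-3055 replicate 4 with Dox (−0.98). In VIM-3039 cells it changed by −0.89 (adjusted p = 0.00424). Wnt16, a ligand known from bone, fell in VIM-3039 cells alone, from 126, 133, 148 and 168 to 51.4, 46.4, 48.6 and 56.6 units (−1.48, SE 0.12, adjusted p = 4.82e-10), and stood at 233 ± 12.6 without and 231 ± 14.2 with Dox in MYC-2983 cells and at 93.2 ± 18.8 and 80.8 ± 7.83 in VM-3055 cells. Wnt10a, known from tooth and skin appendages, did not pass in any line (log2 changes −0.59, −0.81 and −0.46). In all, 9, 8 and 9 ligands fell with Dox of the 16, 11 and 12 tested in the MYC-2983, VM-3055 and VIM-3039 lines, and 0 rose.

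Among the receptors Fzd9 passed as higher with Dox in all 3 lines. Fzd9 read 157, 153, 152 and 158 units in the MYC-2983 libraries with Dox and 15.1, 11.2, 11.6 and 11.97 in those without. The 4 VM-3055 libraries with Dox read 121, 121, 95.9 and 126 and those without 7.05, 5.82, 8.53 and 7.596. In VIM-3039 cells the values were 119, 136, 119 and 125 with and 5.69, 5.57, 6.12 and 3.32 without Dox. Every library with Dox lay above every library without it by far more than the spread within a group, and the log2 changes were 3.54, SE 0.13, adjusted p = 1.37e-14 in MYC-2983, 3.83, SE 0.18, adjusted p = 1.38e-12 in VM-3055 and 4.37, SE 0.20, adjusted p = 1.29e-14 in VIM-3039 cells. Fzd9 lies on chromosome 5 of mm9, at 135724808 to 135727100 on the minus strand, and overlaps no other annotated gene.

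Of the other Frizzled receptors, Fzd1 and Fzd5 fell in each line. The mean of Fzd5, a receptor known from eye development, fell from 1483 to 546 units in MYC-2983, 655 to 294 in VM-3055 and 1298 to 387 in VIM-3039 cells, with log2 changes of −1.44, −1.16 and −1.74. Fzd1 fell from 556 to 219 units in MYC-2983, 809 to 345 in VM-3055 and 554 to 257 in VIM-3039 cells, with log2 changes of −1.34, −1.23 and −1.11. Fzd2 passed in VIM-3039 cells alone (log2 change −1.06), and not under TMM rescaling there. Fzd6, the most abundant receptor per kb, fell short of the required change in the 3 lines at −0.87, −0.97 and −0.83. Fzd7 stood at 569 without and 732 units with Dox in MYC-2983 cells, 923 and 1188 in VM-3055 cells and 771 and 934 in VIM-3039 cells, and did not pass in any. Fzd3, Fzd4 and Fzd8 did not pass either. Lgr5, the R-spondin receptor that marks intestinal stem cells, read 5.03, 9.24, 5.42 and 4.72 units in MYC-2983 cells with Dox and lay at or under the floor in all 4 libraries without, so that it was at least 3.34-fold higher with Dox. In VM-3055 cells it read 5.91, 5.96, 2.55 and 4.39 with Dox and was at least 2.23-fold higher, and in VIM-3039 cells it did not pass (adjusted p = 0.0678). The Lgr5 gene overlaps another gene on the opposite strand.

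The starts of 3 of these genes are shown because Fzd9 rose in all 3 lines, Wnt9a fell in each line, and Wnt11 fell most in VIM-3039 cells. They were picked after the values had been seen. Each sequence is the 250 bases before the gene's RefSeq start on the GRCm38.p6 assembly, which is a later assembly than that of the reads, written 5′ to 3′ on the gene's strand. Capitals mark CACGTG, the E-box that MYC is known to bind, in Fzd9 (chr5:135251048-135251297, minus strand) and Wnt9a (chr11:59306680-59306929, plus strand), and ATCAAAG, which is CTTTGAT read on the other strand and the core known for Tcf and Lef factors, in Wnt11 (chr7:98834862-98835111, plus strand).
Fzd9: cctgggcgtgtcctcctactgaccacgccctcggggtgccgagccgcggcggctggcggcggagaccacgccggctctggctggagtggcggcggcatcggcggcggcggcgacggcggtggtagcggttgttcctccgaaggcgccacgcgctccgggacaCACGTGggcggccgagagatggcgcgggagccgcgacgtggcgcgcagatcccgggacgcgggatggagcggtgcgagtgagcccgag
Wnt9a: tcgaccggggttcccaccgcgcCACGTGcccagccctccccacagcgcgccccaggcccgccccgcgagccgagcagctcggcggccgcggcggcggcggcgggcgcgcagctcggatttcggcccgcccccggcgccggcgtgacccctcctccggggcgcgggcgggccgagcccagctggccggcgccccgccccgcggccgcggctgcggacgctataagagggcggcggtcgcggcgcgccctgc
Wnt11: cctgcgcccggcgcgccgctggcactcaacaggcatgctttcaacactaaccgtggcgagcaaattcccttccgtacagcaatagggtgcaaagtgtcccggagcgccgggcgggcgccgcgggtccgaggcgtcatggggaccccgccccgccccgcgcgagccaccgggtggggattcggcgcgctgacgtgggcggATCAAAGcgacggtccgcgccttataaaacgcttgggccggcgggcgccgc
The CACGTG of Fzd9 starts 88 bases and that of Wnt9a 228 bases before the gene start, and the ATCAAAG of Wnt11 starts 51 bases before it in 1 of the 2 Wnt11 windows. The windows of Fzd9, Wnt9a and Wnt11 hold 76.4%, 84.4% and 70.8% G and C. Of the 41 WNT genes, 28 had an entry, with 35 windows. CACGTG, which reads alike on both strands, was in 3 of the 35 windows (Fzd9, Lef1 and Wnt9a) and in 6.02% of all 32851 windows of this length, and CTTTGAT or CTTTGAA on either strand was in 3 (Dkk1, Wnt5b and Wnt11) and in 7.48% of all. A match describes the letters only. Of the genes with CACGTG, Fzd9 was higher and Wnt9a lower with Dox, and Lef1 did not pass.

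In MYC-2983 and VIM-3039 cells the secreted inhibitors were led by Dkk3, a divergent member of the Dkk family. It differs from Dkk1 in not being known to bind the LRP co-receptors. In MYC-2983 cells Dkk3 read 1414, 1376, 1341 and 1561 units with and 4833, 5059, 4988 and 5088 without Dox (−1.81, SE 0.04, adjusted p = 1.37e-17). In VIM-3039 cells it read 629.6, 697, 783 and 641 with and 4177, 4027, 4122 and 4211 without (−2.59, SE 0.05, adjusted p = 1.16e-20). In VM-3055 cells it was close to the floor with Dox, at 2.22, 2.55, 1.698 and 4.39 units. Without Dox it read 19.4, 17.4, 21.7 and 15.95 there (−2.44, SE 0.28, adjusted p = 2.92e-07). Dkk3 was thus lower with Dox in the 3 lines with no overlap, from starting levels that differed widely between the lines.

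Sfrp2, which binds WNT ligands, was the inhibitor that rose. In MYC-2983 cells it read 219, 225, 239.8 and 205 units with and 33.01, 24.3, 27.02 and 23.9 without Dox, with no overlap (3.0, SE 0.11, adjusted p = 2.49e-14). In VM-3055 cells it rose from 1.503 ± 0.5205 to 7.71 ± 2.72 units (SD, n = 4, log2 change 1.77), and in VIM-3039 cells it stood near the floor, at 0.207 ± 0.415 without and 1.37 ± 1.13 with Dox (adjusted p = 0.118). The Sfrp2 gene overlaps another gene on the opposite strand. Sfrp4, of the same family, fell from 28.9 to 11.5 units in MYC-2983, 5.23 to 0.951 in VM-3055 and 17.4 to 4.23 in VIM-3039 cells, with log2 changes of −1.22, −1.84 and −1.800. These low levels did not pass in any line when 10 rather than 1 unit was added before taking logs. Dkk2 fell in VIM-3039 cells from 21.2 ± 5.57 to 4.03 ± 1.637 units (−2.16) and in VM-3055 cells it was at 0 in each library with Dox and at 1.503 ± 0.686 without, both close to the floor. Dkk1, the blocker of the LRP co-receptors, passed in MYC-2983 cells, where it was at or under the floor with Dox and at 4.85 ± 0.452 units without, at least 2.98-fold lower. Sfrp1 and Sfrp5 had no cell group mean above the floor.

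At the nuclear end, Axin2, the feedback scaffold often used as a readout of β-catenin signalling, was lower with Dox in each line. It read 65.4, 44.6, 33.6 and 49.3 units in MYC-2983 cells with Dox and 120.1, 140.2, 141 and 137 without (−1.497, SE 0.15, adjusted p = 3.44e-08). In VM-3055 cells it read 5.91, 5.11, 0.849 and 1.75 with and 27.3, 34.9, 38.8 and 19.7 without (−2.98, SE 0.37, adjusted p = 1.01e-06), and in VIM-3039 cells 2.08, 2.08, 3.94 and 2.42 with and 16.1, 20.1, 21.4 and 17.4 without (−2.46, SE 0.29, adjusted p = 7.78e-08). Without Dox all libraries of a line lay above all of those with Dox. Gm11670 overlaps Axin2 on the other strand. Tcf7 rose in VIM-3039 cells, from 61.2 ± 5.37 to 132 ± 11.1 units (SD, n = 4, log2 change 1.099), but missed the required change at an added value of 10 units (0.998), and it did not pass in MYC-2983 (0.27) or VM-3055 cells (0.30). Lef1 did not pass in any line, at 57.7 and 59.8 units without and with Dox in MYC-2983, 108 and 90.6 in VM-3055 and 106 and 158 in VIM-3039 cells.

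**Figure D4:**
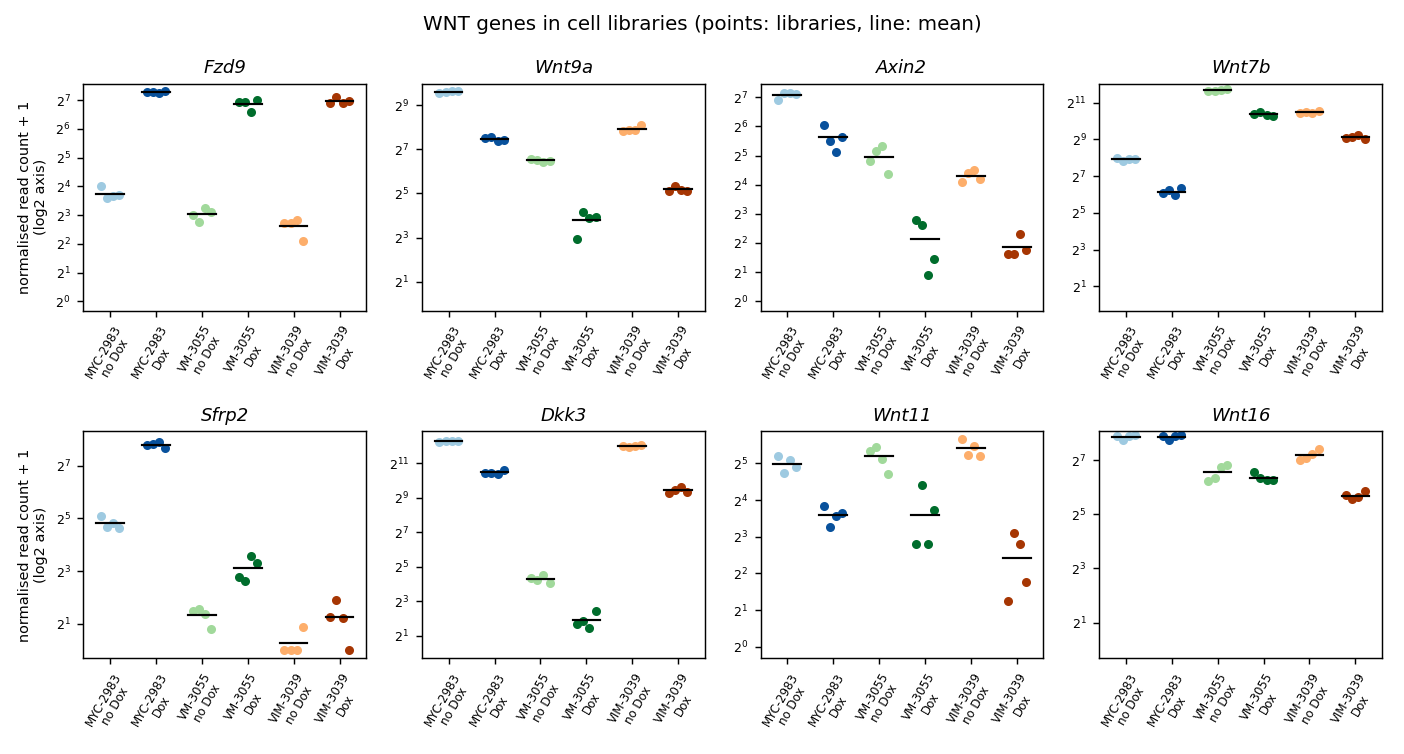
Units in each of the 24 cell libraries (points, with the group mean as a line) for selected WNT genes, plus 1 on a log2 axis, by line and Dox. Fzd9 with Dox lies between 95.9 and 158 units and without Dox between 3.32 and 15.1, and Axin2, Dkk3, Wnt7b and Wnt9a lie lower with Dox in each line.

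A list of 62 further genes of the pathway, of which 60 were in the table, was read beside these. With Dox 3 of its 56 tested genes were higher and 11 lower in MYC-2983 cells, 3 and 11 of 52 in VM-3055 cells and 3 and 15 of 52 in VIM-3039 cells, with median log2 changes of −0.24, −0.42 and −0.47. Of all genes tested 4.49% were higher and 15% lower in MYC-2983, 5.92% and 18.9% in VM-3055 and 7.67% and 16.6% in VIM-3039 cells, with the medians of −0.13, −0.26 and −0.15 given above. The 1 gene of the list that passed in the same direction in the 3 lines at 50 units or more was Wls, the carrier that brings WNT ligands to the cell surface. It stood at 5225 ± 81.2 units without and 2373 ± 77.2 with Dox in MYC-2983 cells (SD, n = 4), 5598 ± 355 and 2213 ± 84.5 in VM-3055 cells and 5091 ± 106 and 2047 ± 154 in VIM-3039 cells, with log2 changes of −1.14, −1.34 and −1.32. Rnf43, which removes Frizzled receptors from the surface, was noticed after its values were seen. It rose with Dox in MYC-2983 cells, from 13.6 to 36.8 units (1.38), and fell from 15.9 to 4.27 in VM-3055 (−1.84) and from 34.1 to 5.97 in VIM-3039 cells (−2.38). The change differed from that of MYC-2983 cells by −3.23 in VM-3055 (SE 0.46, adjusted p = 7.73e-06) and −3.77 in VIM-3039 cells (SE 0.36, adjusted p = 1.79e-08). The summed level of 8 fibroblast and mural markers also moved with Dox, at 345 to 359.5 units with and 1131 to 1320 without Dox in MYC-2983 cells, 87.4 to 113 and 631 to 712 in VM-3055 cells and 56.9 to 75.6 and 192 to 247 in VIM-3039 cells. With Dox 6 of the 8 were at or under the floor in VM-3055 cells (Col1a1, Dcn, Lum, Pdgfra, Pdgfrb and Thy1) and 4 in VIM-3039 cells. Other marker sums moved as well. The 3 renal epithelial markers summed to 10946 to 12476 units with and 16169 to 17128 without Dox in MYC-2983 cells, 5589 to 5716 and 12878 to 13289.8 in VM-3055 cells, and 5593 to 5704 and 9674 to 10363 in VIM-3039 cells. The leukocyte sum was lower with Dox in MYC-2983 (17.9 to 24.9 against 49.2 to 58.2) and VM-3055 cells (28.8 to 40.0 against 112 to 141). The part of these markers in the WNT changes was not tested. The endothelial markers summed to at most 12.5 units in the cell libraries. The Myc row of the table was lower with Dox, at 676 against 1831 units in MYC-2983, 384 against 1364 in VM-3055 and 381 against 1479 in VIM-3039 cells, and whether it counts transcripts of the transgene is not known.

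The size of the Dox change differed between lines for a few WNT genes. Against MYC-2983 cells, 2 of 36 WNT genes had a higher and 4 a lower change in VM-3055 cells (3.26% and 5.53% of all genes), and 1 and 5 of 34 in VIM-3039 cells (4.54% and 4.52%). Between VIM-3039 and VM-3055 cells 0 of 31 differed upwards and 2 downwards (3.7% and 2.35%). Wnt16 was the gene at a high level among them. Its change in VIM-3039 cells was lower by 1.47 than that of MYC-2983 cells (SE 0.13, adjusted p = 5.08e-09) and lower by 1.30 than that of VM-3055 cells (SE 0.20, adjusted p = 2.38e-05). Axin2 fell more in VM-3055 than in MYC-2983 cells, by a difference of −1.49, SE 0.45, adjusted p = 0.0105, though in VM-3055 cells with Dox it lay close to the floor. The difference became −0.24 with 10 units added before taking logs and −0.97 under quantile normalization, which did not pass. Sfrp2 rose less in VM-3055 (−1.23) and VIM-3039 cells (−2.12) than in MYC-2983 cells. These differences did not pass with 0.1 units added (−0.75 and −0.71). Wnt11 fell more in VIM-3039 than in MYC-2983 cells (−1.76, SE 0.42, adjusted p = 0.00146). Its difference from VM-3055 cells (−1.44, adjusted p = 0.0371) was lost without 1 of VM-3055 replicates 2 or 4 with Dox, 3 or 4 without Dox, or VIM-3039 replicates 1 or 4 with Dox, 1 or 3 without (−1.11 to −1.43). Dkk2 fell more in VIM-3039 than in MYC-2983 cells (−2.02, adjusted p = 8.88e-04), from 21.2 units without Dox in VIM-3039 cells. In MYC-2983 cells it was close to the floor. Dkk1, Wnt2 and Wnt6 also differed, as did Dkk2 in VM-3055 cells, with at least 1 of the lines compared close to the floor. The Dkk2 difference of VM-3055 cells was lost on leaving out any 1 of 12 of the 16 libraries, that of Wnt6 in VM-3055 cells any 1 of 9, and that of Wnt6 in VIM-3039 cells any 1 of 7. For Fzd9 the differences between the lines were 0.28 (SE 0.21), 0.83 (SE 0.23) and 0.54 (SE 0.27) for VM-3055 against MYC-2983, VIM-3039 against MYC-2983 and VIM-3039 against VM-3055 cells (adjusted p = 0.287, 0.00543 and 0.127), and none exceeded 1.

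With Dox the lines also differed in which WNT genes they expressed. VM-3055 against MYC-2983 cells had 3 higher and 14 lower of 30 WNT genes tested (6.54% and 18.1% of all genes), or 5 and 12 under quantile normalization, where the numbers over all genes went from 967 and 2668 to 1953 and 1781. VIM-3039 against MYC-2983 cells had 4 higher and 14 lower of 30 (5.66% and 18.3%), or 6 and 8 under quantile normalization, where those over all genes went from 831 and 2684 to 1673 and 1779. VIM-3039 against VM-3055 cells had 7 higher and 3 lower of 29 (9.69% and 9.45%). Wnt7b and Wnt4 were higher in both Vhl-deleted lines than in MYC-2983 cells. Wnt7b differed by 4.22, SE 0.08, adjusted p = 3.00e-14 in VM-3055 and by 2.97, SE 0.09, adjusted p = 5.69e-13 in VIM-3039 cells, and Wnt4 by 1.78 (SE 0.11) and 2.201 (SE 0.09). The values of both genes in each library are given above, and no library of MYC-2983 cells with Dox reached those of the other lines.

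Genes lower with Dox in both Vhl-deleted lines than in MYC-2983 cells included Axin2, Sfrp2, Wnt9a, Wnt10a, Wnt16 and Tcf7. Axin2 differed by −3.65, SE 0.38, adjusted p = 8.41e-07 in VM-3055 and by −3.75, SE 0.24, adjusted p = 3.13e-09 in VIM-3039 cells. Sfrp2, at 222 units with Dox in MYC-2983 cells against 7.71 in VM-3055 and as little as 1.37 in VIM-3039 cells, differed by −4.73 and −6.704. Tcf7 read 593, 549, 553 and 595 units in MYC-2983, 262, 278, 241 and 274 in VM-3055 and 144, 130.4, 136 and 118 in VIM-3039 cells, in an order without overlap, and differed from MYC-2983 cells by −1.12 and −2.11. The Tcf7 difference of VM-3055 cells was −0.97 or −0.92 under TMM rescaling or quantile normalization and did not pass there. Dkk3 gave the widest contrast. It stood at 1423 ± 96.4 units in MYC-2983, 688 ± 69.9 in VIM-3039 and 2.71 ± 1.17 in VM-3055 cells with Dox (SD, n = 4), lower in VM-3055 than in MYC-2983 cells with a difference of −8.63, SE 0.18, adjusted p = 5.31e-14, and higher in VIM-3039 than in VM-3055 cells (7.58, SE 0.19, adjusted p = 5.09e-15). Lef1 passed as higher in VIM-3039 than in MYC-2983 cells (1.39), at 157, 159, 153 and 162 against 66.98, 53.8, 61.3 and 57.3 units. Wnt10b, at 14.04 ± 2.57 units in VIM-3039 cells and 0 in VM-3055 cells with Dox, was at least 5.64-fold higher in VIM-3039 cells. In cells without Dox 36 of 45 of these line differences passed in the same direction, and Wnt11 turned direction in VIM-3039 cells against both other lines.

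Against normal kidney the tumours of all 3 types had higher Fzd9, Sfrp5 and Wnt5b and lower Sfrp1 and Wnt9b. In MYC tumours 10 of 34 WNT genes tested were higher and 2 lower, against 18.8% and 18.6% of all genes. In VM tumours 4 of 33 were higher and 9 lower, against 17.3% and 22.5%, or 7 and 9 under quantile normalization, where the numbers over all genes went from 2853 and 3721 to 3500 and 3258. In VIM tumours 8 of 33 were higher and 11 lower, against 18.9% and 20.7%. The median log2 change of the WNT genes tested was 0.60, 0.07 and −0.38, or 0.58, −0.15 and −0.61 with genes at the floor set to their bound, and 0.07, −0.05 and 0.01 over all genes. Within the B6 kidneys alone the numbers of WNT genes were 10 and 2, 3 and 7, and 6 and 6, and within the KT kidneys alone 7 and 3, 3 and 10, and 4 and 11. The numbers over all genes with these kidneys alone are not given here, so the shifts are not read as particular to WNT genes. The 3 comparisons share the 5 kidney libraries. In these tissue samples fewer cells of a type and less RNA per cell cannot be told apart.

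The makeup of the tissue differed strongly between tumours and kidney. The summed level of 6 proximal tubule markers was 3164 to 10626 units in the 9 tumours and 400047 to 1505440 in the kidneys, and 6 of 6 passed as lower in each tumour type. All 3 loop and distal tubule and all 3 collecting duct markers were lower in each type, with collecting duct sums of 0 to 657 units in tumours and 2756 to 5051 in kidney. The 6 leukocyte markers summed to 1737 to 13356 units in tumours and 526 to 860 in kidney. Of the 6, 3 passed as higher in each type, but 2 passed as lower in VM and 1 in VIM tumours. Cd3e was at or under the floor in all VM and VIM tumours, as Cd79a was in all VM tumours. For the endothelial markers, 4 or 5 of 5 were lower. The fibroblast and mural sum was 673 to 2837 units in 8 tumours, 13056 in MYC tumour replicate 2 and 1558 to 5319 in kidney. The part of these differences in the WNT results was not tested. In the cell lines the leukocyte sum was at most 141 units and the endothelial sum at most 12.5 units.

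Fzd9 was near 0 in normal kidney and present in all 9 tumours. It read 42.9, 30.9 and 63.6 units in the MYC, 85.2, 69.1 and 111 in the VM and 203, 253 and 101 in the VIM tumours, and 0, 0, 0, 0 and 1.26 in the 5 kidneys. All tumours lay above all kidneys, where Fzd9 did not exceed the floor, so that it was at least 10.1-fold higher in MYC, 19.9-fold higher in VM and 41.7-fold higher in VIM tumours (adjusted p = 8.90e-05, 3.63e-06 and 4.70e-06 with limma). Its level in the cells with Dox, 95.9 to 158 units, lay within the range of all tumours pooled, 30.9 to 253 units. By genotype, MYC-2983 cells with Dox (152 to 158) lay above all MYC tumours (30.9 to 63.6). VM-3055 cells with Dox (95.9 to 126) overlapped the VM tumours (69.1 to 111). VIM-3039 cells with Dox (119 to 136) lay within the range of the VIM tumours (101 to 253). Cells and tumours were not tested against each other. Fzd9 also passed in each type with the B6 or the KT kidneys alone and without any 1 library.

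Of the ligands, Wnt5b read 1154, 801 and 2083 units in the MYC, 2465, 2143 and 582 in the VM and 644, 218 and 1467 in the VIM tumours, and 152, 114, 161, 122 and 182 in the 5 kidneys. All 9 tumours lay above all 5 kidneys, with log2 changes of 3.08, SE 0.23, adjusted p = 3.27e-05 in MYC, 3.33, SE 0.42, adjusted p = 1.21e-04 in VM and 2.03, SE 0.50, adjusted p = 0.00721 in VIM tumours, the last of which did not pass against the B6 kidneys alone (1.91). The overlap of its gene with Fbxl14 applies here too. Wnt9b, the ureteric signal that starts nephrons, read 1.87, 6.17 and 0 units in the MYC, 1.33, 0 and 0 in the VM and 0, 11.3 and 3.67 in the VIM tumours, and 12.1, 18.98, 13.4, 24.4 and 67.05 in the 5 kidneys. It was higher in each kidney than in each tumour, with log2 changes of −3.06, −4.12 and −2.58 (adjusted p = 0.00545, 3.48e-04 and 0.02499), and the call in VIM tumours was lost without VIM tumour replicate 1 (−1.61) or against the B6 kidneys alone (−1.83). Wnt10a rose in MYC tumours, at 42.9, 102 and 153 against 5.19, 2.92, 1.34, 6.51 and 11.4 units in kidney (3.74, SE 0.72, adjusted p = 0.00306), and in VIM tumours (2.105), where the call was lost against the KT kidneys alone (1.74). In VM tumours it did not pass (adjusted p = 0.648). Wnt11 read 3.73, 66.4 and 8.47 units in the MYC, 1.33, 1.03 and 2.47 in the VM and 24.5, 58.9 and 11.01 in the VIM tumours, and 0, 0, 0, 0 and 3.795 in the 5 kidneys. It rose in VIM tumours (4.27, SE 0.71, adjusted p = 7.27e-04) and in MYC tumours (2.998, adjusted p = 0.0187), where the call was lost without the 2 libraries of mouse 2983 (1.79) and against the KT kidneys alone (2.697).

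In VIM tumours several further ligands passed only with certain libraries included. Wnt7b read 154, 466 and 31.2 units in VIM tumours and 17.3, 18.98, 16.1, 14.7 and 44.3 in kidney (log2 change 2.64, adjusted p = 0.0155), and did not pass without VIM tumour replicate 1 (2.52) or 2 (1.73). Wnt16 read 16.9, 133 and 55.1 and 8.65, 7.299, 4.02, 9.77 and 18.98 (2.400, adjusted p = 0.0135), and did not pass without VIM tumour replicate 2 (1.71). That library also had the highest loop and distal tubule sum of the 9 tumours, 5059 units against 58.7 and 158 in the other VIM tumours. Wnt5a passed as lower in VIM tumours (60.3, 50.1 and 60.6 against 96.9, 175, 77.6, 125 and 261 units, −1.22), but not without VIM tumour replicates 1 (−1.27) or 2 (−1.14) or kidney replicates 2 (−1.13) or 5 (−0.99). Wnt8b in VIM and Wnt10b in MYC tumours passed at levels near the floor, and Wnt8b did not pass without VIM tumour replicate 1 (1.94) or 2 (1.82). The calls in VIM tumours were also lost against the B6 or the KT kidneys alone for Wnt7b (2.91 and 2.46) and Wnt16 (2.88 and 2.08), against the B6 kidneys for Wnt5a (−0.60) and against the KT kidneys for Wnt8b (1.795).

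Among the receptors several Frizzled genes were lower in VM and VIM tumours. Fzd4, known for its part in blood vessel growth, read 969, 483 and 1568 units in the MYC, 379, 193 and 346 in the VM and 277, 485 and 521 in the VIM tumours, and 1081, 1635, 1096, 1396 and 2336 in the 5 kidneys, with log2 changes of −2.29, SE 0.30, adjusted p = 1.34e-04 in VM and −1.81, SE 0.30, adjusted p = 6.85e-04 in VIM tumours. All VM and VIM tumours lay below all kidneys. Fzd1 (−2.19 in VM and −3.02 in VIM tumours) and Fzd8 (−1.796 and −3.01) fell in the same types, with kidney means of 1416 ± 208 and 275 ± 50.5 units (SD, n = 5). Fzd5 fell in VM (−1.397) and VIM tumours (−1.15), in the latter not without VIM tumour replicate 3 (−0.93) or kidney replicate 4 (−0.99), nor against the B6 kidneys alone (−0.77). Fzd2 fell in VM tumours, to 3.99, 5.15 and 1.23 units against 62.3, 65.7, 46.9, 35.8 and 110.1 (−3.89, SE 0.51, adjusted p = 1.41e-04), and Fzd3 in VIM tumours, to 9.42, 30.1 and 18.4 against 81.3, 118, 91.03, 91.2 and 231 (−2.63, SE 0.47, adjusted p = 0.00114). In MYC tumours no Frizzled gene passed as lower, with log2 changes of −1.07, −0.65 and −0.90 for Fzd1, Fzd4 and Fzd8, and whether the types differ was tested in the comparisons among tumours. Fzd6 and Fzd7 did not pass in any type. Lgr5 read 6.53, 169.8 and 862 units in the MYC tumours and 1.73, 1.46, 0, 1.63 and 15.2 in the kidneys. The pass in MYC tumours (4.12, adjusted p = 0.0477) had its 2 high libraries from mouse 2983. It was lost without its 2 libraries (1.28) or any 1 of kidney replicates 1 to 4 (3.71 to 4.07) and against the B6 (5.02) or KT kidneys alone (3.51), and was 6.95 without MYC tumour replicate 1.

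Of the inhibitors, Sfrp1 was lower and Sfrp5 higher in all 3 tumour types. Sfrp1, the most abundant inhibitor in kidney, read 29.9, 261 and 11.3 units in the MYC, 50.6, 1.03 and 18.5 in the VM and 9.42, 145 and 45.9 in the VIM tumours, and 2465, 3447, 3289, 3562 and 5728 in the 5 kidneys. Every tumour lay far below every kidney, with log2 changes of −6.41, SE 0.33, adjusted p = 6.28e-06 in MYC, −8.13, SE 0.83, adjusted p = 2.96e-05 in VM and −6.42, SE 0.68, adjusted p = 4.90e-05 in VIM tumours. Its relative Sfrp5 read 938, 169.8 and 138 units in the MYC, 168, 2144 and 118 in the VM and 386, 319.5 and 1026 in the VIM tumours, and 5.19, 11.7, 0, 6.51 and 5.06 in the 5 kidneys. Here every tumour lay above every kidney, with log2 changes of 6.21, SE 1.04, adjusted p = 0.001496, 6.09, SE 1.05, adjusted p = 8.02e-04 and 6.61, SE 0.78, adjusted p = 9.35e-05. The calls for Sfrp1 and Sfrp5 held in each type with the B6 or the KT kidneys alone and without any 1 library. In the cell lines neither gene was detected above a few reads, a difference that was not tested.

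Sfrp2 fell in VM (−3.83) and VIM tumours (−3.94), where it read 17.3, 1.03 and 0 and 0, 2.51 and 7.34 units against 19.03, 68.6, 36.1, 45.6 and 97.4 in kidney, but neither call held against the B6 kidneys alone (−3.03 and −3.15). In the MYC tumours it read 20.5, 449 and 126 units and did not pass. Dkk2, which can act as either an activator or an inhibitor, fell in VM (−3.01, SE 0.73, adjusted p = 0.00603) and VIM tumours (−2.39, SE 0.42, adjusted p = 0.00102), with 274, 83.5 and 13.6 and 117, 218 and 45.9 units against 472, 594, 474, 567 and 725. The change in VM tumours was −1.88 without VM tumour replicate 3 and did not pass against the B6 kidneys alone (−2.77). Dkk3 passed in MYC tumours (944, 372 and 884 against 223, 216, 151, 181 and 471 units, 1.68), but not without MYC tumour replicate 1 (1.33). Dkk1 passed there at 27.1, 0 and 12.7 units against a kidney level at or under the floor, at least 3.75-fold higher, a call lost without MYC tumour replicate 1 (1.28) or kidney replicates 1, 2 or 4 (2.59) and against the B6 or KT kidneys alone (both 2.74), with 4.20 without the 2 libraries of mouse 2983.

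Tcf7 read 122, 215 and 122 units in the MYC, 43.9, 21.6 and 52.7 in the VM and 71.6, 110.3 and 12.8 in the VIM tumours, and 7.16, 13.1, 16.5, 11.4 and 28.4 in the 5 kidneys. It rose in MYC tumours, where all libraries lay above the kidneys (3.25, SE 0.53, adjusted p = 0.00127), and passed in VM tumours (1.35, adjusted p = 0.0485), though not without VM tumour replicates 1 (1.23) or 3 (1.10) or kidney replicates 1 to 4 (1.13 to 1.41), nor against the B6 (1.67) or KT kidneys alone (1.14). In VIM tumours it did not pass (adjusted p = 0.0652). Axin2 read 10.3, 35.5 and 15.5 units in the MYC, 3.99, 6.19 and 1.23 in the VM and 1.88, 5.01 and 1.84 in the VIM tumours, and 5.19, 10.2, 9.37, 6.51 and 21.5 in the 5 kidneys. It passed as lower in VIM tumours alone (−1.51, adjusted p = 0.0365), and not without VIM tumour replicates 1 (−1.33) or 3 (−1.32) or kidney replicates 2 (−1.48), 3 (−1.51) or 5 (−1.23), nor against the B6 (−1.13) or KT kidneys alone (−1.76). Lef1 was too low to be tested against normal kidney.

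**Figure D5:**
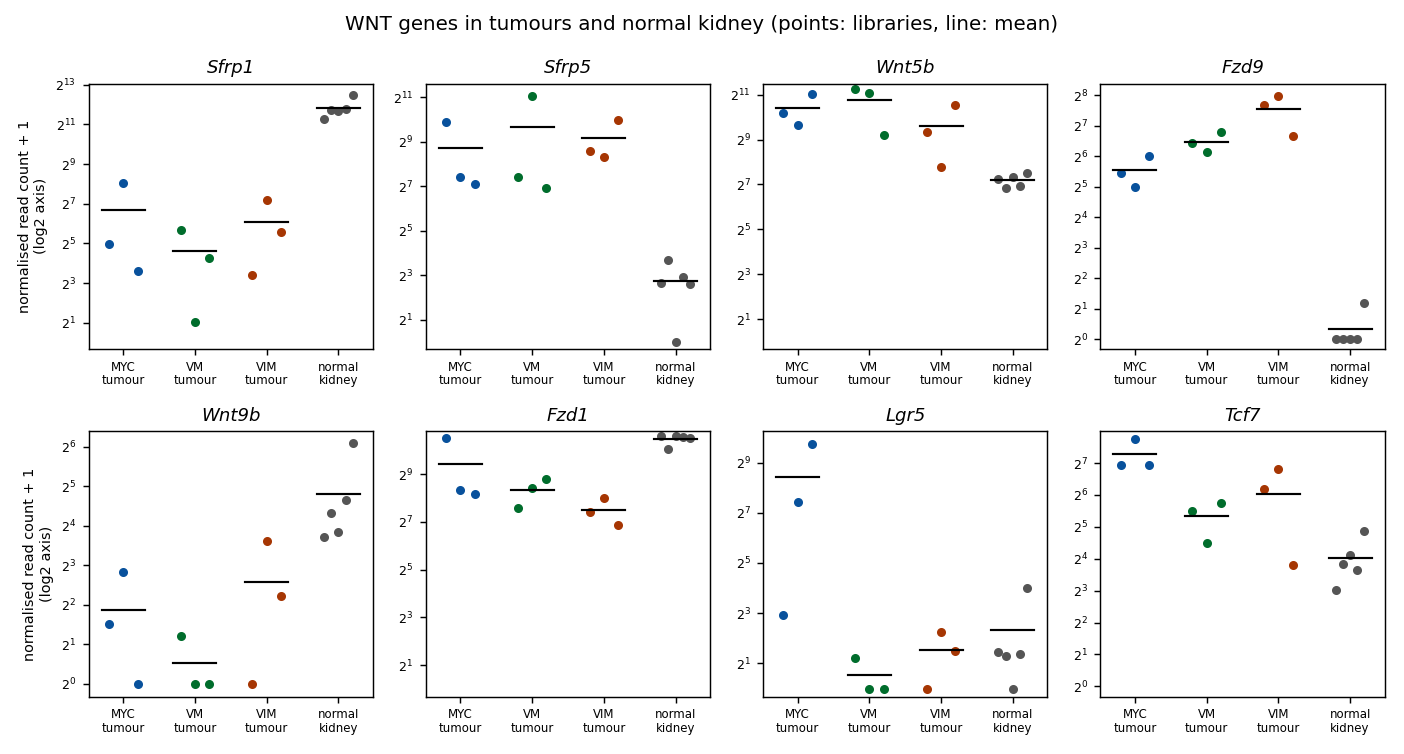
Units in each of the 14 tissue libraries (points, with the group mean as a line) for selected WNT genes, plus 1 on a log2 axis. Sfrp1 lies at 2465 to 5728 units in the kidneys and at most at 261 in the tumours, while Fzd9, Sfrp5 and Wnt5b lie higher in all 9 tumours.

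In the list of further pathway genes 11 of 58 tested were higher and 11 lower in MYC tumours, 6 and 19 of 57 in VM tumours and 4 and 18 of 57 in VIM tumours, with median log2 changes of 0.30, −0.15 and −0.37. Of all genes 18.8% and 18.6%, 17.3% and 22.5%, and 18.9% and 20.7% passed in these directions, with medians of 0.07, −0.05 and 0.01. Only the 6 genes with the largest mean change are described with values. Ror2, Daam2, Ccnd1 and Wls also passed as lower in all 3 tumour types. For Wls the change was −0.71 in MYC tumours without the libraries of mouse 2983 and −0.92 in VM tumours without replicate 3. Notum, an enzyme that inactivates WNT ligands by removing their lipid, had a mean of 448 ± 14.01 units in kidney (SD, n = 5) and at most 3.17 in a tumour type, with log2 changes of −6.75, −8.81 and −7.95. Sostdc1, a secreted inhibitor of BMP and WNT signalling, had a kidney mean of 1348 ± 476 and changed by −3.48, −7.97 and −6.39, the first of which was −1.99 without the 2 libraries of mouse 2983 and did not pass against the B6 kidneys alone (−3.24). Rnf43, a target gene that also limits Frizzled at the surface, had a kidney mean of 101 ± 44.9 and changed by −3.45 (−2.26 without MYC tumour replicate 1), −5.07 and −2.68. The Rnf43 call in MYC tumours was lost with limma voom on recovered reads (−2.44), against the B6 kidneys alone (−2.83) and with each MYC tumour library as a sample (−3.05), and that in VIM tumours against the B6 kidneys alone (−2.06).

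Sp5, a transcription factor gene that is a common β-catenin target, changed by −4.64, −2.33 and −2.71 from a kidney mean of 297 ± 76.6 units (SD, n = 5). In VM tumours its change was −1.51 without VM tumour replicate 3 and did not pass against the B6 kidneys alone (−2.56). In VIM tumours it did not pass without VIM tumour replicates 1 (−2.37) or 2 (−1.87), nor against the B6 (−2.94) or KT kidneys alone (−2.565). Tle2, a co-repressor of Tcf factors, changed by −3.78 (−2.04 without MYC tumour replicate 1 and lost against the B6 kidneys alone, −3.48), −6.55 and −4.62 from 194 ± 116 units. Cd44, a surface glycoprotein often listed as a WNT target and also abundant on leukocytes, was the gene of these that rose, from 70.5 ± 22.05 units in kidney to means of 1869, 1617 and 1216 in MYC, VM and VIM tumours, with log2 changes of 4.77, 4.39 and 4.12. The leukocyte sums that moved with it are given above.

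Among the tumour types 0 of 34, 35 and 33 WNT genes passed for VM against MYC, VIM against MYC and VIM against VM tumours, where 0.0%, 0.00616% and 0.249% of all genes passed. At an unadjusted p under 0.05 there were 8, 12 and 7 WNT genes with limma, against 2110 of 16085, 2361 of 16246 and 1831 of 16096 over all genes. A limma voom fit on recovered reads also gave 0 WNT genes that passed. When all tissue groups entered 1 limma fit, Fzd4 (−1.641, adjusted p = 0.0448) and Wnt10a (−3.37, adjusted p = 0.0452) passed as lower in VM than in MYC tumours. In that fit Fzd3 (−3.04), Dkk1 (−3.35), Fzd7 (−1.44), Fzd8 (−2.11) and Wnt5a (−2.01) passed as lower in VIM than in MYC tumours, and Fzd3 (−2.37) as lower and Wnt11 (3.38) as higher in VIM than in VM tumours. How many of all genes passed in that fit is not given here.

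Set side by side without a test, cells and tissue held different WNT genes. Lef1 stood at group means of 57.7 to 158 units in the cells and at most 0.514 in tissue. Wnt4, at 54.8 to 791 units in the cell groups, did not exceed 27.8 in any tissue library, and Fzd2, at 331 to 880.5 in the cells, had means of 3.46 to 75.96 in tissue. Wnt7b with Dox was at 70.7, 1329 and 559 units in the lines in the same order and at 69.6, 46.7 and 217 in MYC, VM and VIM tumours. VM tumour replicate 2, which shares its mouse number with the VM-3055 line, read 60.8 units of Wnt7b. For Wnt5b the order was the other way, with 139, 154 and 93.9 in cells with Dox and 1346, 1730.000 and 776 in the tumours. Fzd9 was present in both the Dox-treated cells and the tumours and near the floor in normal kidney.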

How the data were processed

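RNA was measured in 38 mouse libraries prepared with a stranded mRNA kit and read from both ends. The deposited signal values are upper-quartile normalised RSEM estimates that the authors made from reads aligned to mm9 with MapSplice and handled with Picard 1.64, SAMtools and UBU. They are not counts, so no test made for counts was run on them. As an alternative, limma voom was run on reads recovered from them. The commonest positive value below 3 units in a library was read as the value of 1 read. Of the values under 20 reads, 94.1% to 95.8% were then whole within 0.02, and 3 reads served as the floor. The strand setting of the counting is not given in the sources used here, and 8 of the 40 WNT genes matched in the mm9 annotation (GENCODE M1), whose longest transcripts gave the levels per kb, overlap another gene.

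Groups were compared in pairs with limma 3.58.1 (R 4.3.3; moderated, trended variance) on log2 of the value plus 1, two-sided, Benjamini-Hochberg adjusted over all genes above 0 in at least 4 libraries (cells) or 2 samples (tissue). Differences between lines in the Dox change were tested as an interaction over 16 libraries. The members and lists were chosen with earlier results of these data known. WNT genes with a group mean of at least 20 units are named with values, and from the further pathway list at most 6 genes per comparison that passed in the same direction throughout at 50 units or more. Simulated data with 200 altered genes served as a test of the scripts. Alternatives were an added 0.1 or 10 units, no filter or only genes averaging 10 units, TMM (trims of 30% and 5%) and quantile scaling, limma voom on the recovered reads, all groups of the material in 1 fit, a replicate block, B6 or KT kidneys alone, each MYC tumour library as a sample, cells without Dox, and each library or mouse left out. Plots used matplotlib 3.10.9 (Python 3.11.15).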

Additional observations from a re-analysis of the deposited data

Results flagged for a closer look

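Of 142 pairs of WNT gene and group with 4 or 5 libraries, 13 had 1 library far from the others by Dixon's criterion, where chance gives about 1 in 20. Normal kidney replicate 5 stood above the other kidneys for Dkk3 (471 units against 151 to 223), Fzd3 (231 against 81.3 to 118), Wnt7b (44.3 against 14.7 to 18.98) and Wnt9b (67.0 against 12.1 to 24.4). The same kidney had the lowest summed proximal tubule markers of the 5 (400047 units against 1106370 to 1505440) and the highest loop and distal tubule (145237 against 63260 to 97234), collecting duct (5051 against 2756 to 3252) and fibroblast and mural sums (5319 against 1558 to 3536). The part of these markers in the WNT values was not tested. Kidney replicate 2 was low for Fzd1 (1050 units against 1451 to 1554) and replicate 4 high for Fzd8 (363 against 239 to 272).

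In the cells the library that stood apart was VIM-3039 replicate 1 without Dox for Fzd1 (523 units against 561 to 569), VM-3055 replicate 3 with Dox for Fzd3 (575 against 509 to 515), MYC-2983 replicate 3 with Dox for Fzd4 (211 against 177 to 178) and VM-3055 replicate 3 without Dox for Fzd8 (102 against 78.5 to 81.3). The same held for MYC-2983 replicate 1 without Dox for Wnt2b (39.4 against 46.7 to 47.9), VIM-3039 replicate 2 with Dox for Wnt9a (39.5 against 33.9 to 34.1) and MYC-2983 replicate 2 without Dox for Wnt16 (215 against 238 to 242).

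The log2 change with Dox differed between lines in 16 tests of the interaction (limma). Against MYC-2983 cells, the change in VIM-3039 cells was higher for Dkk1 by 2.12 and differed by −2.02 for Dkk2, −2.12 for Sfrp2, −1.76 for Wnt11, −1.47 for Wnt16, −1.21 for Wnt6 and −3.77 for Rnf43. Against the same cells, the change in VM-3055 cells was higher for Dkk1 by 1.89 and for Wnt2 by 1.66 and differed by −1.49 for Axin2, −1.15 for Dkk2, −1.23 for Sfrp2, −1.48 for Wnt6 and −3.23 for Rnf43. Between VIM-3039 and VM-3055 cells it differed by −1.44 for Wnt11 and −1.30 for Wnt16. Dkk1, Wnt2 and Wnt6 were at or near the floor in at least 1 line in these tests.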

How the results depend on the processing

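The number of WNT genes passing stayed within 1.5 times that reported for the 3 Dox comparisons and for VM-3055 or VIM-3039 against MYC-2983 cells under the alternatives run, apart from scalings described beside them. With 10 units added before taking logs it fell from 10 to 5 for VIM-3039 against VM-3055 cells, from 6 to 2 and from 6 to 3 for the Dox changes of VM-3055 and VIM-3039 against MYC-2983 cells. Testing only genes that averaged 10 units gave 4, 2 and 3 there. With 0.1 added, 3 of the 6 differences of VM-3055 against MYC-2983 cells and 1 of the 2 of VIM-3039 against VM-3055 cells passed, as did 1 of those 2 with no filter. Against the B6 kidneys alone 12 rather than 19 genes passed in VIM tumours. With all tissue groups in 1 fit 2, 5 and 2 rather than 0 genes passed between tumour types. The numbers over all genes under these tissue alternatives are not given here. In cells without Dox the differences of VIM-3039 cells in Wnt11 turned, to 0.41 against MYC-2983 and 0.23 against VM-3055 cells.

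Leaving out 1 library or mouse gave 17 to 19 genes for Dox in MYC-2983, 16 to 17 in VM-3055 and 18 to 19 in VIM-3039 cells, 14 to 17 for VM-3055 and 16 to 18 for VIM-3039 against MYC-2983 cells, and 6 to 12 between the Vhl-deleted lines. The interactions gave 4 to 5, 5 to 7 and 1 to 3, the tumours against kidney 10 to 16 (MYC), 12 to 14 (VM) and 14 to 20 (VIM), and each pair of tumour types 0 to 0. Of 3246 single alternative values for 185 calls, 3027 kept direction and threshold, 217 lost the threshold and 2 turned, and 106 calls never lost it. The calls counted here include those of Cd44, Notum, Rnf43, Sostdc1, Sp5, Tle2 and Wls from the further pathway list. These figures are therefore not of the WNT genes alone. The added value of 10 units lost 43 of 185 calls, quantile scaling 20, and B6 or KT kidneys alone 20 and 11 of 65. The cause was not tested.

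VM-3055 and VIM-3039 libraries carry replicate numbers, but same-numbered libraries correlated at only −0.15 to 0.12 in their deviations from the group means, so the numbers were not taken as pairs. A replicate block gave 17 WNT genes for Dox in VM-3055, 18 in VIM-3039, 10 between these lines and 2 for their interaction. It changed 0 of 51 calls, among which are those of Rnf43 and Wls.

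Depth sets the floor at 1.16 to 3.34 units in cells and 2.80 to 5.65 in tissue, and genes near it (Dkk1, Dkk2 in VM-3055 cells, Lgr5, Wnt6, Wnt8b, Wnt10b) rest on few reads. The variance between replicates was a median of 1.36 to 2.92 times that of counting in cells, 7.90 in kidney and 21.3 to 21.6 in tumours.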

Other observations

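The 2 libraries of MYC mouse 2983, MYC tumour replicates 2 and 3, differed in many WNT genes, although both came from 1 animal. Replicate 2 held more Wnt16 (142 against 14.1 units), Wnt11 (66.4 against 8.47), Sfrp2 (449 against 126), Sfrp1 (261 against 11.3) and Fzd2 (189.8 against 29.7). It was also the tumour library with the highest Wnt4 (27.8 units) and Wnt7a (26.2), both at 0 in replicate 3. Replicate 3 held more Lgr5 (862 against 169.8) and Wnt5b (2083 against 801). The summed fibroblast and mural markers were 13056 units in replicate 2 and 1054 in replicate 3, and the loop and distal tubule markers 2752 and 93.2, while the leukocyte sums were 2301 and 2404. These are 2 libraries of 1 mouse, and no test was made.

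Lgr5 was low in the MYC-2983 line (5.03, 9.24, 5.42 and 4.72 units with Dox), which carries the number of the same mouse as these tumour libraries, and in MYC tumour replicate 1 (6.53).

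Tissue libraries with the most Wnt7b and Wnt16 among VIM tumours were the same 1, replicate 2 (466 and 133 units, against 154 and 31.2 of Wnt7b and 16.9 and 55.1 of Wnt16 in replicates 1 and 3). It held collecting duct markers at a sum of 657 units, against 3.77 and 12.8 in the other VIM tumours, and also had the most Wnt11 of the 3 (58.9 against 24.5 and 11.01).

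Of the WNT ligands, Wnt3a reached 13.9 units in MYC tumour replicate 2 and was at or under the floor in the other 37 libraries.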
